A study of Homo sapiens with 12 samples.

Results

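The aryl hydrocarbon receptor pathway was followed through 6 genes: the receptor AHR, its partner ARNT, and 4 genes of its transcriptional response, CYP1A1, CYP1B1, TIPARP and AHRR. They are 6 of the 26485 genes listed by symbol, and they were chosen by name and from their mean levels in these treatments, so their levels are described without a test. The cells were HT-29, a human colon adenocarcinoma line, and RNA was sequenced after 8 h in 12 libraries, 3 for each treatment. TSZ combined TNFα at 10 ng/ml, the Smac mimetic SM-164 at 50 nM and the pan-caspase inhibitor zVAD at 20 μM, a mixture used to drive necroptosis. TSZ+Nec-1s was the same mixture with 10 μM Nec-1s, an inhibitor of RIPK1 kinase. The third treatment was TNFα alone at 10 ng/ml, and DMSO was the vehicle control. Cells given SM-164 or zVAD without the rest of the mixture were not analysed here, so what each of them did cannot be told apart, and all values come from 1 cell line.

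AHR is a bHLH-PAS transcription factor that is held in the cytoplasm by HSP90 and other chaperones until a ligand binds. It then enters the nucleus, pairs with ARNT and binds xenobiotic response elements, whose core is GCGTG, in the DNA near its target genes. CYP1A1 and CYP1B1, which oxidise polycyclic aromatic compounds and many natural AHR ligands, are the classical targets. TIPARP, an ADP-ribosyltransferase, and AHRR, which competes with AHR for ARNT, are targets that act back on the receptor. In the gut epithelium the pathway is known for sensing compounds from the diet and from microbes.

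Sequence upstream of the start site was read for the members from the RefSeq promoter table on GRCh38.p14, in which 5 of the 6 genes were found and CYP1B1 was not. The window was the 250 bases before the start, and the core was searched as GCGTG and as its reverse complement CACGC. At the start shared with the main GENCODE transcript, TIPARP held 2 cores, CYP1A1 held 1, AHRR held 1, and AHR and ARNT held 0. The count depends on the start. At its other RefSeq starts, 156674926 and 156676664, TIPARP held 0 cores, and at the other AHRR start, 322610, AHRR held 2. Of all 35116 promoters in the table, 32.2% held at least 1 core and 10.2% held at least 2, so a core in such a window is common. The 3 stretches with a core at the shared start are printed 5′ to 3′ on the strand of the gene, with the cores in capitals. They place the motif of the pathway beside the 3 targets. The TIPARP stretch lies on the plus strand at chr3:156674340-156674589, within the span that GENCODE gives the gene and where exons of the antisense gene TIPARP-AS1 also lie. The CYP1A1 stretch lies on the minus strand at chr15:74725537-74725778 and leaves out the 8 bases nearest to the start, which another CYP1A1 transcript includes in its exon. The AHRR stretch lies on the plus strand at chr5:321464-321713.
TIPARP: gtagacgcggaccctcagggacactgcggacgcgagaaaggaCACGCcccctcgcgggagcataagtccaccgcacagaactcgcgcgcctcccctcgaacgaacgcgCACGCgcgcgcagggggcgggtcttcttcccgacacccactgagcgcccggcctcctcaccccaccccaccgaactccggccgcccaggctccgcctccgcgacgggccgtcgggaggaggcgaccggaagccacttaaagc
CYP1A1: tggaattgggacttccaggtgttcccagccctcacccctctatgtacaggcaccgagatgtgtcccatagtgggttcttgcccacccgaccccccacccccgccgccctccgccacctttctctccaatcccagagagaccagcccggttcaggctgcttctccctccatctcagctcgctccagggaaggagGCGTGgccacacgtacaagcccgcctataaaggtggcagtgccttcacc
AHRR: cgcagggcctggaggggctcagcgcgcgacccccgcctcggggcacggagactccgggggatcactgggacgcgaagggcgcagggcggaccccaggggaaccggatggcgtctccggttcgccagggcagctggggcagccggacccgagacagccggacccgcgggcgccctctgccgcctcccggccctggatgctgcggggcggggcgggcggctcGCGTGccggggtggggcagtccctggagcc
The cores began 208 and 142 bases before the start of TIPARP, 57 bases before that of CYP1A1 and 30 bases before that of AHRR. The data hold no measure of AHR binding, and a match in the letters is not a bound site.

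The deposited tables give 1 mean per treatment, and whole reads of each library were recovered from these means as described under the processing. Levels are normalised reads, that is, reads divided by the size factor of the library. The libraries held 8781228 to 12734104 reads, and they are lettered a, b and c within a treatment; the letters pair no libraries between treatments. The totals limit the genes with few reads most. Whether the 3 libraries of a treatment came from separate cultures is not given in the sources used here, so the spread and the p-values measure the difference between these libraries, which may be technical. In 3 libraries the deviation from the mean of the treatment fell with the GC content of the transcript: TSZ library a, TNFα library a and DMSO library b, and the rank correlation of the 2 over 11546 genes (Spearman's rho) was -0.75, -0.61 and -0.81. The other 9 libraries had rho between -0.14 and 0.78. AHR and TIPARP have a GC content of 40.8%, below that of most genes tested (median 48.5%), and AHRR has 57.9%, so the main differences of the members are also given without these 3 libraries, a choice made after the data were seen. Scaling by total reads instead of size factors moved the median log2 difference of all genes tested to -0.43 for TSZ over DMSO, -0.33 for TSZ over TNFα and 0.35 for TSZ+Nec-1s over TSZ, from medians within 0.02 of 0, and left it within 0.1 of 0 in the other 3 comparisons. In bulk RNA, fewer cells and less RNA per cell cannot be told apart. The comparisons share libraries, since every treatment enters 3 of the 6, and all 6 members passed the filter at a mean of 10 normalised reads that the tested genes had to pass.

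Of 10 markers of colon epithelium, 8 had a mean of at least 10 normalised reads in every treatment, among them EPCAM, CDH1 and KRT20. The exceptions were CDX1 and CDX2, transcription factors of the intestinal lineage, with means of at most 0.740 and 6.77. The defining leukocyte genes PTPRC and CD3E and the endothelial gene CDH5 were at 0 in every treatment. The summed level of 7 leukocyte markers was 605 to 726 with TSZ, 404 to 409.8 with TSZ+Nec-1s, 335 to 394 with TNFα and 221 to 263 with DMSO, of which CD68 and ITGAM made up most with TSZ. The summed level of 7 fibroblast and endothelium markers was 211 to 488 with TSZ, 42.7 to 59.9 with TSZ+Nec-1s, 47.2 to 63.1 with TNFα and 51.3 to 194 with DMSO, mostly COL1A1 and COL1A2. These sums moved with TSZ as several members did, but not every marker in them did. CD14 was at 12.6 with TSZ against 80.8 with DMSO, and PECAM1 at 9.95 against 21.1. ITGAM was highest with TSZ+Nec-1s, at 218, against 117 with TSZ, 134 with TNFα and 9.33 with DMSO. The part of the sums in the results was not tested.

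Of the 6 members, 4 were higher in every TSZ library than in every DMSO library (AHR, ARNT, CYP1A1 and TIPARP) and 1 was lower (AHRR). Groups did not overlap in these directions for 25.4% and 25.0% of all 11749 genes tested, and the contrast was among those that chose the members, so nothing is read from the count. In every TSZ+Nec-1s library, 5 members were lower than in every TSZ library, all but AHRR, where 29.4% of all genes tested were separated downward and 28.0% upward. Over TNFα, 5 members, all but AHRR, were higher in every TSZ library and none was lower, against 28.0% and 26.9% of all genes. With the same reads scaled to the total per library, CYP1A1 and TIPARP remained higher in every TSZ library than in every DMSO library. AHRR remained lower in every TSZ library, while AHR and ARNT overlapped. In TSZ over TNFα so scaled, CYP1B1 overlapped, and AHRR was lower in every TSZ library than in every TNFα library. The share of all genes separated under this scaling was not worked out, so nothing is read from these separations either.

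TIPARP, the ADP-ribosyltransferase that modifies AHR and lowers its activity, had the widest difference of the 6 in TSZ over DMSO and in TSZ+Nec-1s over TSZ, while CYP1A1 had the widest in TSZ over TNFα. It had 4025, 3333 and 3182 normalised reads in the TSZ libraries, 614, 576 and 628 in the TSZ+Nec-1s libraries, 662, 538 and 666 in the TNFα libraries, and 468, 620.1 and 369.8 in the DMSO libraries. The TSZ libraries stood far above all 9 others, and the other 3 treatments overlapped each other. The means were 3513 ± 449 with TSZ, 606 ± 26.6 with TSZ+Nec-1s, 622 ± 72.5 with TNFα and 486 ± 126 with DMSO (SD, n = 3 each). The log2 difference, with its SE from the fit across all genes, was 2.88 ± 0.16 for TSZ over DMSO, a 7.35-fold difference, 2.50 ± 0.15 for TSZ over TNFα and -2.53 ± 0.15 for TSZ+Nec-1s over TSZ. Without the 3 libraries that fell with GC these were 2.96, 2.45 and -2.43. TNFα over DMSO was 0.38 ± 0.17 and TSZ+Nec-1s over DMSO 0.35 ± 0.17, and in both the libraries overlapped through DMSO library b, at 620.1. These differences were 0.51 ± 0.12 and 0.53 ± 0.11 without the 3 libraries. The gene lies on the plus strand of chromosome 3 at 156673235 to 156706770 of GRCh38, and the overlapping antisense gene TIPARP-AS1 had a mean of at most 14.8 in any treatment.

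CYP1A1, the inducible monooxygenase most often used as a reporter of AHR activity, was near the lower limit of the data except with TSZ. It had 61, 74.5 and 60.7 normalised reads in the TSZ libraries, 18.2, 14.8 and 23.1 in the TSZ+Nec-1s libraries, 12.1, 4.81 and 11 in the TNFα libraries, and 8.10, 18.9 and 10.7 in the DMSO libraries. These rest on 172 reads in all with TSZ, 63 with TSZ+Nec-1s, 29 with TNFα and 37 with DMSO. The TSZ libraries did not overlap any other, and the TSZ+Nec-1s libraries lay above the TNFα libraries but overlapped the DMSO libraries. The log2 difference was 2.43 ± 0.33 for TSZ over DMSO, a 5.40-fold difference, and 2.84 ± 0.35 for TSZ over TNFα. It was -1.81 ± 0.29 for TSZ+Nec-1s over TSZ, which left TSZ+Nec-1s at 0.62 ± 0.37 over DMSO and 1.03 ± 0.39 over TNFα. Without the 3 libraries that fell with GC, TSZ over DMSO was 2.81 ± 0.41, TSZ over TNFα 3.13 and TSZ+Nec-1s over TSZ -1.87. TSZ+Nec-1s was then at 0.94 ± 0.43 over DMSO and 1.27 ± 0.46 over TNFα. CYP1A1 lies on the minus strand of chromosome 15 at 74719542 to 74725536.

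**Figure D1:**
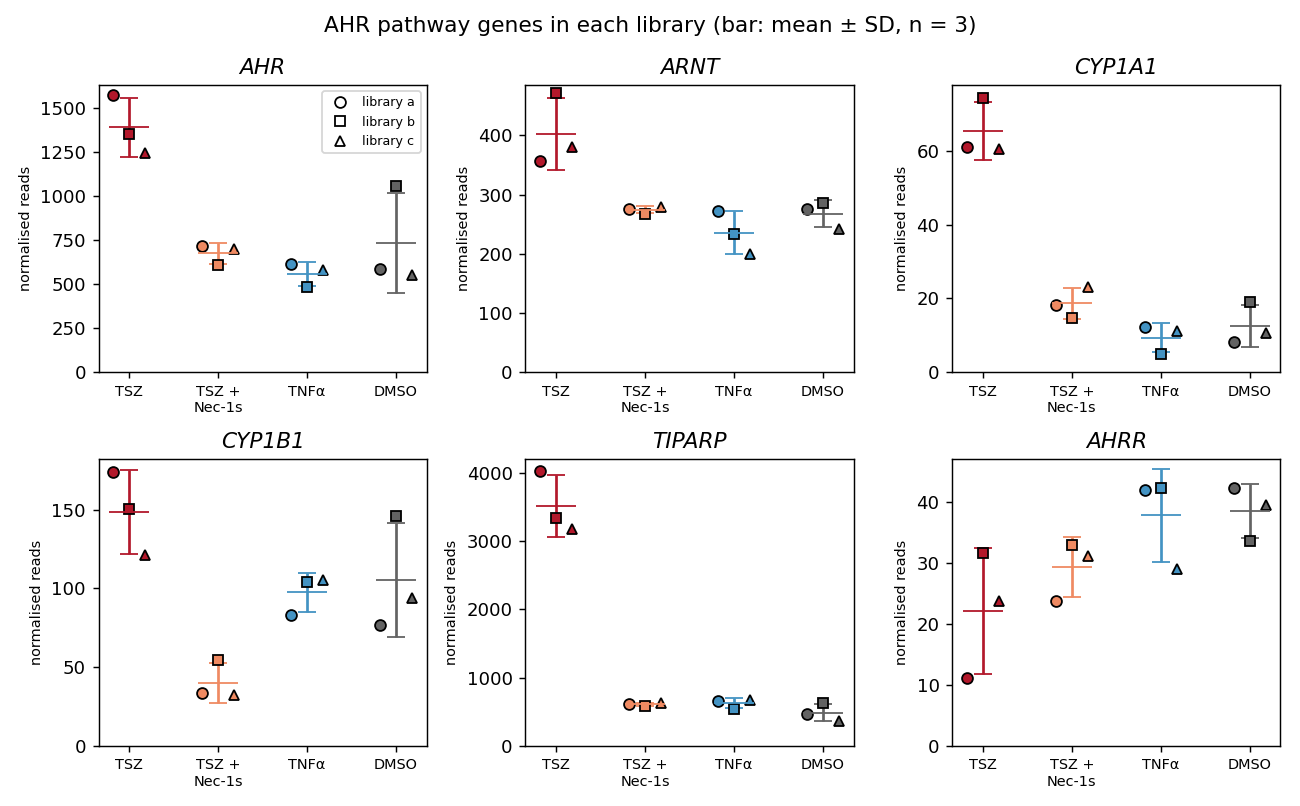
Normalised reads of the 6 genes in each of the 12 libraries, by treatment, with the mean and SD of the 3 libraries as bars; each axis starts at 0 and has its own scale. TIPARP, CYP1A1 and AHR stand highest in the 3 TSZ libraries, CYP1B1 lies lowest with TSZ+Nec-1s (32.2 to 54.7), and DMSO library b, at 1057 for AHR and 146 for CYP1B1, lies apart from the other 2 DMSO libraries.

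CYP1B1, the related monooxygenase that also oxidises oestradiol, was lower with TSZ+Nec-1s than with TSZ, as CYP1A1 was, and was also lower with TSZ+Nec-1s than with TNFα or DMSO. It had 174, 150.1 and 121 normalised reads in the TSZ libraries, 33.2, 54.7 and 32.2 in the TSZ+Nec-1s libraries, 83.2, 104 and 105 in the TNFα libraries, and 76.5, 146 and 94.1 in the DMSO libraries. With Nec-1s it was below every TNFα and every DMSO library, the only member for which this was so. TSZ+Nec-1s was at -1.36 ± 0.29 over DMSO and -1.30 ± 0.29 over TNFα on the log2 scale, with means of 40.0 ± 12.7 with TSZ+Nec-1s, 97.4 ± 12.3 with TNFα and 106 ± 36.2 with DMSO (SD, n = 3 each). Both differences kept their sign in all alternatives run, between -1.61 and -1.10 over DMSO and between -1.55 and -1.17 over TNFα, with -1.10 ± 0.23 and -1.41 ± 0.22 without the 3 libraries. TSZ over TNFα was 0.61 ± 0.24, with every TSZ library above every TNFα library, and 0.37 ± 0.20 without the 3 libraries. TSZ over DMSO was 0.54 ± 0.24, and the libraries overlapped because DMSO library b lay at 146. Without the 3 libraries the difference was 0.68 ± 0.21, and with scaling to total reads it was 0.14. TSZ+Nec-1s over TSZ was -1.91 ± 0.28, and -1.79 without the 3 libraries. CYP1B1 lies on the minus strand of chromosome 2 at 38066973 to 38109902, where RMDN2 and CYP1B1-AS1 overlap it on the other strand. Their means were at most 17.1 and 5.14, and since reads were counted without regard to strand, reads of the overlapping parts cannot be told apart.

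AHR itself had 1574, 1352 and 1244 normalised reads in the TSZ libraries, 716, 608 and 700.2 in the TSZ+Nec-1s libraries, 614, 483 and 581 in the TNFα libraries, and 588, 1057 and 549 in the DMSO libraries. All TSZ libraries were above all others, and the other 3 treatments overlapped. The DMSO mean of 732 ± 283 (SD, n = 3) was raised by library b, without which it was 569. The log2 difference was 0.99 ± 0.20 for TSZ over DMSO and 1.19 ± 0.10 without the 3 libraries, and it was 0.58 with scaling to total reads. It was 1.31 ± 0.20 for TSZ over TNFα and -1.04 ± 0.20 for TSZ+Nec-1s over TSZ, and without the 3 libraries 1.29 and -0.95. TNFα over DMSO was -0.32 ± 0.21, and -0.11 without the 3 libraries. AHR lies on the plus strand of chromosome 7 at 16916359 to 17346152. GENCODE also places an unnamed protein-coding gene over it on the same strand, which is not listed by symbol.

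ARNT, the partner that AHR shares with the hypoxia-inducible factors, differed least among the 4 members that were higher in every TSZ library than in every DMSO library. It had 357, 472 and 379.6 normalised reads in the TSZ libraries, 276, 267 and 279.7 in the TSZ+Nec-1s libraries, 273, 233 and 200.2 in the TNFα libraries, and 276, 286 and 243 in the DMSO libraries. The TSZ libraries were above the rest and the other treatments overlapped. The log2 difference was 0.58 ± 0.14 for TSZ over DMSO, 0.77 ± 0.14 for TSZ over TNFα and -0.54 ± 0.14 for TSZ+Nec-1s over TSZ. With scaling to total reads they were 0.17, 0.43 and -0.21, so that the size for ARNT rests on the scaling, and without the 3 libraries that fell with GC they were 0.71, 0.97 and -0.63. ARNT lies on the minus strand of chromosome 1 at 150809713 to 150876708.

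AHRR, the repressor that competes with AHR for ARNT, was the one member whose TSZ mean was the lowest of the 4 treatments. It had 11.1, 31.6 and 23.8 normalised reads in the TSZ libraries, 23.7, 33 and 31.2 in the TSZ+Nec-1s libraries, 42.0, 42.3 and 29.0 in the TNFα libraries, and 42.3, 33.6 and 39.5 in the DMSO libraries. The low value of 11.1 came from TSZ library a, one of the 3 libraries that fell with GC. TSZ over DMSO was -0.90 ± 0.33 on the log2 scale and -0.47 without that library, and TSZ+Nec-1s over TSZ was 0.49 ± 0.34 and 0.06 without it. The TSZ and TSZ+Nec-1s libraries overlapped, and the gap between the highest TSZ+Nec-1s and the lowest DMSO library was 33 against 33.6. The values rest on 58 reads with TSZ, 99 with TSZ+Nec-1s, 118 with TNFα and 116 with DMSO. AHRR lies on the plus strand of chromosome 5 at 321714 to 438291, and the read-through gene PDCD6-AHRR lies over it on the same strand. PDCD6-AHRR is not among the symbols listed, so how reads shared by both were counted cannot be told.

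**Figure D2:**
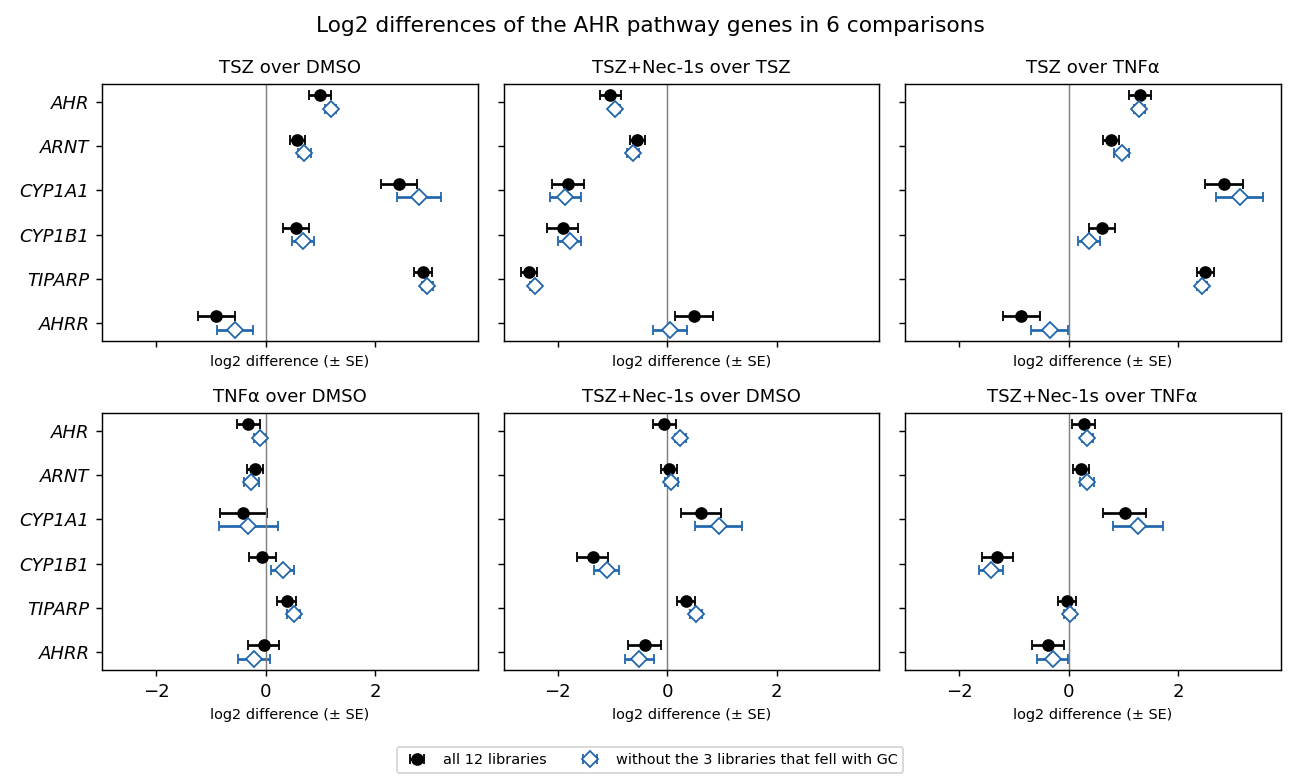
Log2 differences of the 6 genes with their SE in the 6 comparisons, over all 12 libraries (filled circles) and without the 3 libraries that fell with GC (open diamonds). TIPARP and CYP1A1 lie furthest from 0 with TSZ over DMSO (2.88 and 2.43), CYP1B1 lies furthest below 0 for TSZ+Nec-1s over DMSO (-1.36), and AHRR in TSZ over DMSO lies at -0.90 over all libraries and at -0.56 without the 3.

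Ratios of 2 members within a library do not depend on the scaling of the libraries. TIPARP and AHR also have nearly the same GC content. The SD of their ratio was 0.0536 with TSZ, 0.0456 with TSZ+Nec-1s and 0.0335 with TNFα. With DMSO it was larger, at 0.105 on a mean of 0.685. There were 2.56, 2.46 and 2.56 reads of TIPARP per read of AHR in the TSZ libraries, 0.858, 0.949 and 0.897 in the TSZ+Nec-1s libraries, 1.08, 1.11 and 1.14 in the TNFα libraries, and 0.796, 0.586 and 0.673 in the DMSO libraries. No 2 treatments overlapped, and DMSO library b, the highest of its group in the level of both genes, was the lowest of its group in the ratio. The TNFα, TSZ+Nec-1s and DMSO libraries, which overlapped in the level of TIPARP and in that of AHR, were also apart in this ratio. The ratio of CYP1B1 to CYP1A1 split the treatments another way. It was 2.85, 2.02 and 2.0 in the TSZ libraries and 1.83, 3.71 and 1.39 in the TSZ+Nec-1s libraries, against 6.85, 21.6 and 9.55 in the TNFα libraries and 9.44, 7.72 and 8.80 in the DMSO libraries. Every library with SM-164 and zVAD was below every library without them, whether Nec-1s was present or not. The value of 21.6 rests on 5 CYP1A1 reads. The TSZ and TSZ+Nec-1s treatments came to the low ratio in different ways. CYP1A1 had means of 65.4 with TSZ, 18.7 with TSZ+Nec-1s, 9.32 with TNFα and 12.6 with DMSO. CYP1B1 had means of 149, 40.0, 97.4 and 106 in the same order. CYP1B1 also has a lower GC content than CYP1A1, so this ratio is open to the GC trend of the libraries. AHR per ARNT was 4.41, 2.87 and 3.28 in the TSZ libraries and 2.13, 3.70 and 2.26 in the DMSO libraries, which overlap. TIPARP per ARNT was 7.06 to 11.3 with TSZ, 2.16 to 2.24 with TSZ+Nec-1s, 2.31 to 3.325 with TNFα and 1.52 to 2.17 with DMSO. AHR per AHRR was 42.8 to 141.9, 18.4 to 30.2, 11.4 to 20.0 and 13.9 to 31.4 in the same order. How many other gene pairs separate the treatments in this way was not worked out. The members were chosen by their levels, so nothing is read from the separations.

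**Figure D3:**
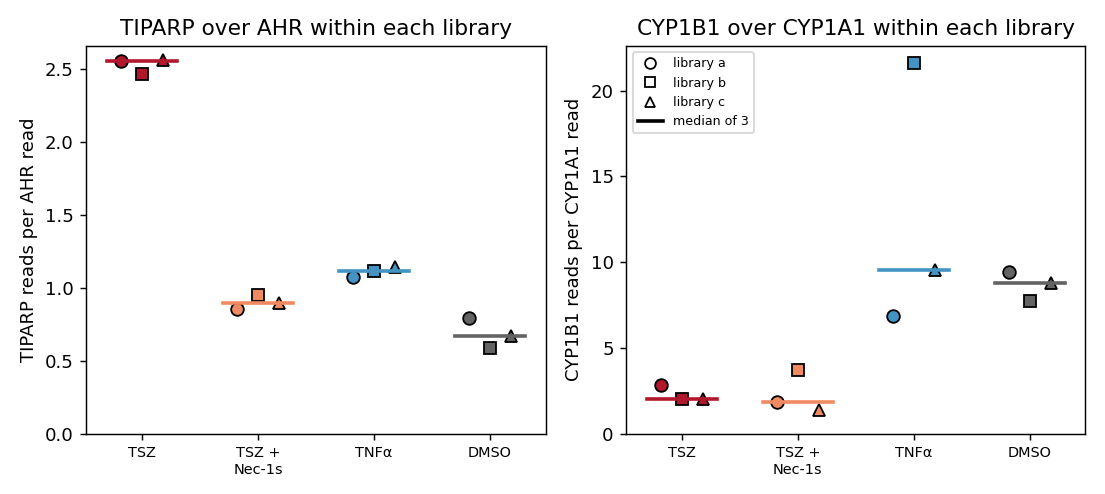
Reads of TIPARP per read of AHR (left) and of CYP1B1 per read of CYP1A1 (right) in each library, by treatment, with the median of 3 as a line; both axes start at 0. The TIPARP ratio lies at 2.46 to 2.56 in the TSZ libraries and below 1.15 in all others, and the CYP1B1 ratio lies at 1.39 to 3.71 in both TSZ treatments and at 6.85 to 21.6 with TNFα or DMSO.

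Per kilobase of the main transcript, the level of the members with TSZ was 909.9 ± 116 normalised reads for TIPARP, 223 ± 27.0 for AHR, 85.5 ± 12.9 for ARNT, 28.5 ± 5.06 for CYP1B1, 25.1 ± 3.02 for CYP1A1 and 3.92 ± 1.83 for AHRR (SD, n = 3 each). CYP1B1 and CYP1A1 did not differ beyond their spread there. With DMSO the level per kilobase was 126 ± 32.7 for TIPARP, 117 ± 45.3 for AHR, 56.9 ± 4.8 for ARNT, 20.2 ± 6.93 for CYP1B1, 6.80 ± 0.784 for AHRR and 4.83 ± 2.17 for CYP1A1. TIPARP and AHR, like AHRR and CYP1A1, were within their spread of each other. Among all genes tested, TIPARP was above 94.3% with TSZ and above 62.1% with DMSO, by its mean of normalised reads.

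The genes whose levels were most like those of each member over the 12 libraries are given as a description; the 12 points share 4 treatments, so a gene that is high with TSZ alone will score high. Pearson's r of log2 levels, searched among the 9936 genes whose mean reached 50, was highest for TIPARP with UGCG (0.995), MXD1 (0.994) and SERTAD2 (0.993). UGCG, the glucosylceramide synthase, had authors' means of 1385 with TSZ, 254 with TSZ+Nec-1s, 246 with TNFα and 204 with DMSO. For AHR they were EPS15 (0.982), SLC19A2 (0.981) and SGMS2 (0.980), and for CYP1A1 they were TRPS1 (0.976), NCOA3 (0.969) and NET1 (0.969). NCOA3 is a nuclear receptor coactivator that is also among the AHR coregulators listed here. ARNT was most like MCU (0.933), KDM3A (0.929) and AMPD3 (0.929), and AHRR was most like SFXN4 (0.934), TMEM180 (0.912) and LINC00339 (0.907). CYP1B1 was most like APBB2 (0.927), ALDH1A3 (0.903) and SDE2 (0.897), and ALDH1A3, a retinaldehyde dehydrogenase, likewise had its lowest mean with TSZ+Nec-1s, at 307 against 494 with TNFα and 419 with DMSO. Between members, r was 0.898 for TIPARP with AHR, 0.934 for CYP1A1 with AHR, 0.326 for CYP1B1 with CYP1A1 and -0.715 for AHRR with AHR.

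The rest of the pathway was read from 8 lists with 101 other genes, of which 71 had a mean of at least 10 normalised reads and were tested with limma, p-values being adjusted by the Benjamini-Hochberg method over all 11749 genes tested. In TSZ over DMSO, 29 of the 71 rose and 11 fell at an adjusted p under 0.05, that is 40.8% and 15.5%, where 26.1% and 24.2% of all genes tested did so. The median log2 difference of the 71 was 0.23, that of all genes -0.01. The lists were chosen with earlier results of these data known. Their shares beside those of all genes, here and below, are therefore a description only. The adjusted p-values of genes named from the lists carry the same limit. With scaling to total reads the split was 18 higher and 26 lower, against 1674 and 5680 of all genes. In TSZ+Nec-1s over TSZ, 11 rose and 19 fell, beside 19.8% and 22.8% of all genes, and the medians were -0.04 and 0.02. Scaled to total reads the split was 25 and 12, against 4943 and 1404 of all genes. In TSZ over TNFα, 25 rose and 8 fell, beside 22.8% and 21.6% of all genes, and 14 rose and 23 fell when scaled to total reads, against 1495 and 4984 of all genes. Without the 3 libraries that fell with GC the counts were 35 higher and 12 lower for TSZ over DMSO, 24 and 28 for TSZ+Nec-1s over TSZ, and 33 and 12 for TSZ over TNFα. The shares of all genes called without these libraries are not set beside them, so nothing about the lists is read from these counts.

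Among 13 tested genes listed as other AHR targets, 7 rose (53.8%) and 2 fell (15.4%) in TSZ over DMSO, beside 26.1% and 24.2% of all genes tested. The median was 0.30, and it became -0.11, with 5 risen and 3 fallen, when scaled to total reads. PTGS2, the inducible cyclooxygenase, rose most of the 71, to 3983 ± 461 normalised reads with TSZ, against 38.3 ± 23.0 with DMSO (SD, n = 3 each; log2 difference 6.87 ± 0.28, limma adjusted p 5.6e-10), and had 406 ± 11.8 with TSZ+Nec-1s. EREG, the EGF receptor ligand epiregulin, rose by 2.43 ± 0.28 to 4826 ± 1577 with TSZ, against 948 ± 503 with DMSO (limma adjusted p 1.1e-05). NQO1, a quinone reductase that AHR and NRF2 both drive, rose to 14816 ± 439 with TSZ, against 7836 ± 414 with DMSO, a log2 difference of 0.92 ± 0.08 (limma adjusted p 6.7e-07). In TSZ+Nec-1s over TSZ, 7 of the 13 fell (53.8%) and 1 rose (7.7%), beside 22.8% and 19.8% of all genes tested. The median was -0.48. Scaled to total reads, 5 fell and 1 rose, with a median of -0.15. PTGS2 fell by 3.29 ± 0.16, EREG fell by 1.69 ± 0.27 and NQO1 fell by 0.83 ± 0.08 on the log2 scale (limma adjusted p 5.2e-09, 0.00028 and 2.8e-06). CYP1A2, the third CYP1 enzyme, had at most 1.05 normalised reads as a mean of any treatment and was not tested.

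Of the chaperones, HSP90AB1 rose in TSZ over DMSO, by 0.55 ± 0.07 to 44438 ± 1226 with TSZ, against 30419.9 ± 1365 with DMSO (limma adjusted p 1.6e-05), and with scaling to total reads the difference was 0.13. In TSZ+Nec-1s over TSZ, HSP90AB1 fell by 0.38 ± 0.06 (limma adjusted p 0.00047), a call that was lost with scaling to total reads, as was its call in TSZ over TNFα. HSP90AA1 had 0.34 ± 0.20 and PTGES3 0.22 ± 0.40 as log2 differences in TSZ over DMSO (limma adjusted p 0.17 and 0.68), and the libraries of PTGES3 were far apart, with an SD of 2189 on a mean of 3536 with TSZ. Without the 3 libraries HSP90AA1 and PTGES3 were also called, both higher with TSZ. Among 7 tested bHLH-PAS relatives, 5 rose (71.4%) and 0 fell in TSZ over DMSO, beside 26.1% and 24.2% of all genes tested. When scaled to total reads, 3 rose and 1 fell. HIF1A, the hypoxia factor that pairs with ARNT, was at 1453 ± 131 with TSZ, against 778 ± 284 with DMSO (log2 difference 0.96 ± 0.20, limma adjusted p 0.0016). ARNT2, the paralog of ARNT, had 15 reads in the 3 TSZ libraries, 1 with TSZ+Nec-1s, 0 with TNFα and 1 with DMSO, too few to test.

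Of 17 AHR coregulators, 8 rose (47.1%) and 3 fell (17.6%) in TSZ over DMSO, beside 26.1% and 24.2% of all genes tested. In TSZ+Nec-1s over TSZ, 8 fell (47.1%) and 1 rose (5.9%), beside 22.8% and 19.8%. Scaled to total reads these became 5 and 6 in the first comparison, and 5 fell and 5 rose in the second. The 3 that fell in TSZ over DMSO, named after their values were seen, were HDAC4 (-1.04 ± 0.15), NCOA1 (-0.81 ± 0.19) and NCOA2 (-0.69 ± 0.24). Their limma adjusted p was 8.8e-05, 0.0032 and 0.027. KLF6, a zinc finger factor described as a partner of AHR, had 18995 ± 727 with TSZ, 756 ± 70.4 with TSZ+Nec-1s, 544 ± 13.1 with TNFα and 568 ± 80.0 with DMSO, so that it rose by 5.07 ± 0.10 in TSZ over DMSO and fell by 4.66 ± 0.10 in TSZ+Nec-1s over TSZ (limma adjusted p 3.6e-12 and 8.7e-12). HDAC5, a histone deacetylase, had 742 ± 100.4 with TSZ, 163 ± 15.8 with TSZ+Nec-1s, 198 ± 20.6 with TNFα and 204 ± 55.6 with DMSO, and fell by 2.17 ± 0.17 in TSZ+Nec-1s over TSZ (limma adjusted p 6.9e-07). RELA, the p65 subunit of NF-κB, had 4541 ± 632 with TSZ, against 1662 ± 90.0 with TNFα, and rose by 1.44 ± 0.13 (limma adjusted p 1.4e-06). RELB, a subunit of the noncanonical NF-κB pathway, rose to 2624 ± 493 with TSZ, against 112 ± 31.3 with DMSO, by 4.56 ± 0.22 (limma adjusted p 2.5e-09). In TSZ over TNFα, the largest differences of the 71 were those of KLF6 (5.12), PTGS2 (4.44), CYP3A5 (2.19), HDAC5 (1.90), EREG (1.84) and RELA, all higher with TSZ and called by limma. Of the 5 genes of AHR turnover 0 were called by limma in TSZ over DMSO, and 4 fell when scaled to total reads, where 5680 of all 11749 genes fell.

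**Figure D4:**
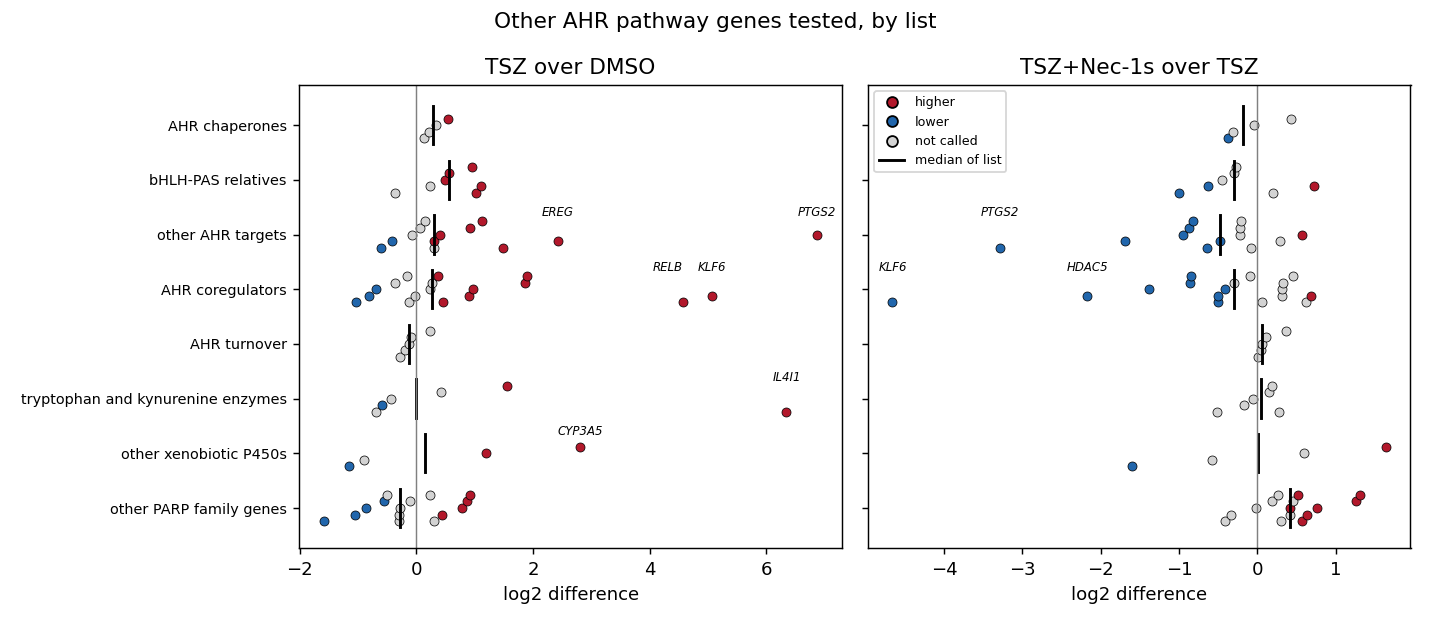
Log2 differences of the 71 other pathway genes tested, by list, for TSZ over DMSO (left) and TSZ+Nec-1s over TSZ (right), coloured by the limma call at an adjusted p under 0.05, with the median of each list as a bar; called genes beyond 2 in size are named. PTGS2 (6.87), IL4I1 (6.34), KLF6 (5.07) and RELB (4.56) lie furthest to the right in the first comparison, and KLF6 (-4.66) and PTGS2 (-3.29) furthest to the left in the second, where IL4I1 was not called.

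IL4I1, a secreted amino acid oxidase whose products from tryptophan can activate AHR, was the enzyme of the tryptophan list that rose most. It had 310.1 ± 49.1 with TSZ, 296 ± 27.2 with TSZ+Nec-1s, 129.7 ± 15 with TNFα and 3.79 ± 2.37 with DMSO (SD, n = 3 each). The log2 difference was 6.34 ± 0.42 for TSZ over DMSO, 6.29 ± 0.42 for TSZ+Nec-1s over DMSO and 5.09 ± 0.42 for TNFα over DMSO (limma adjusted p 6e-08, 4e-07 and 8.1e-06), against 11 reads in the 3 DMSO libraries. IDO1, IDO2 and HAAO, other enzymes of tryptophan breakdown, had 0 reads in every library, and TDO2 had at most 3 reads in a treatment. In all, 6 of the 11 genes of this list were tested, and in TSZ+Nec-1s over TSZ 0 of them were called, where 19.8% of all genes rose and 22.8% fell.

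CYP3A5, a P450 of drug metabolism, had 1579 ± 91.6 with TSZ, 518 ± 22.8 with TSZ+Nec-1s, 347 ± 18.6 with TNFα and 228 ± 41.6 with DMSO, with log2 differences of 2.80 ± 0.12 for TSZ over DMSO and -1.60 ± 0.11 for TSZ+Nec-1s over TSZ (limma adjusted p 1.1e-09 and 1.3e-07). CYP2R1, a vitamin D 25-hydroxylase, went the other way, with 106 ± 11.7 with TSZ+Nec-1s, against 36.8 ± 18.2 with TSZ, a log2 difference of 1.64 ± 0.33 (limma adjusted p 0.0015). Of 15 other tested PARP family genes, the relatives of TIPARP, 4 rose and 4 fell in TSZ over DMSO, with a median of -0.29. That is 26.7% each way, near the 26.1% and 24.2% of all genes tested. In TSZ+Nec-1s over TSZ 7 rose (46.7%) and 0 fell, beside 19.8% and 22.8% of all genes, with a median of 0.41. Scaled to total reads, 1 rose and 8 fell in the first comparison, and 12 rose and 0 fell in the second. PARP16, at 48.1 ± 4.57 with TSZ, 115 ± 8.84 with TSZ+Nec-1s, 130.5 ± 19.7 with TNFα and 145 ± 12.2 with DMSO, is named after its values were seen, as the family member that fell most in TSZ over DMSO. PARP14, a mono-ADP-ribosyltransferase of the interferon response, was highest with TSZ+Nec-1s, at 2644 ± 96.6, against 1656 ± 53.0 with TNFα and 986 ± 93.1 with DMSO.

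In TNFα over DMSO all 6 members overlapped, where 11.6% of all genes tested were separated upward and 7.18% downward, with log2 differences between -0.41 for CYP1A1 and 0.38 for TIPARP. Of the 71 other pathway genes 6 rose and 2 fell, beside 3.14% and 1.07% of all genes tested. The largest rises were IL4I1, RELB, at 1142 ± 147 with TNFα against 112 ± 31.3 with DMSO (log2 difference 3.37 ± 0.22, limma adjusted p 1.3e-06), and PTGS2, at 183 ± 23.0 against 38.3 ± 23.0 (2.43 ± 0.30, limma adjusted p 0.00029). PARP14 rose by 0.75 ± 0.10, CYP3A5 by 0.62 ± 0.13 and PARP12 by 0.62 ± 0.12 (limma adjusted p 0.00078, 0.017 and 0.0099), and the calls of CYP3A5 and PARP12 were lost without TNFα library b or c, and that of CYP3A5 also without DMSO library a or c, at an adjusted p of up to 0.14 for CYP3A5 and 0.11 for PARP12 over their alternatives.

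In TSZ+Nec-1s over DMSO, 2 members were separated downward, CYP1B1 and AHRR, and 4 overlapped, beside 15.2% of all genes tested separated downward and 14.2% upward. Of the 71 others, 12 rose and 1 fell, beside 7.18% and 5.74% of all genes tested. Without DMSO library b 24 rose and 9 fell, a count with no share of all genes beside it. PTGS2 rose by 3.58 ± 0.29, RELB by 3.70 ± 0.22, PARP14 by 1.43 ± 0.10, ARNTL2 by 1.22 ± 0.15 and PARP8 by 1.22 ± 0.21 (limma adjusted p 2.8e-06, 1.7e-07, 9.3e-07, 0.00012 and 0.0016). NQO1 had 8354 ± 298 with TSZ+Nec-1s, against 7836 ± 414 with DMSO, a log2 difference of 0.09 ± 0.08 (limma adjusted p 0.49). In TSZ+Nec-1s over TNFα, CYP1A1 was separated upward, CYP1B1 downward and 4 members overlapped, beside 21.9% and 21.4% of all genes tested separated upward and downward. Of the 71 others, 6 rose and 0 fell, beside 1.09% and 0.255% of all genes tested. IL4I1 rose by 1.19 ± 0.16, PTGS2 by 1.15 ± 0.20, ARNTL2 by 0.86 ± 0.15, ZC3HAV1 by 0.74 ± 0.15, PARP14 by 0.67 ± 0.10 and CYP3A5 by 0.58 ± 0.12 (limma adjusted p 0.0027, 0.012, 0.012, 0.03, 0.0041 and 0.035). Without any 1 of the 6 libraries 2 or 3 of the 71 were called, and with only the 2 groups in the fit 27 of the 71 were called. The shares of all genes called in these fits are not given, so the counts show only how the calls depend on the fit.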

How the data were processed

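Polyadenylated RNA of HT-29 cells was sequenced in 12 libraries, 3 for each of 4 treatments. Per the submitters' processing notes and the methods of the study, the authors aligned reads with STAR to hg38, counted them per gene with HTSeq without regard to strand, and scaled and tested them with DESeq. The 6 deposited tables each hold, for 26485 gene symbols, the mean signal of 2 treatments, that is, reads divided by the size factor of the library and averaged over 3 libraries by the authors. They also hold the fold changes and p-values of the authors, which were not used.

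A mean of 3 scaled whole numbers can take only certain values, so whole reads per library were solved for from the deposited means: 15795 of 15798 detected genes with TSZ, 15733 of 15733 with TSZ+Nec-1s, 15655 of 15664 with TNFα and 15849 of 15850 with DMSO had 1 solution, and size factors computed from these reads differed from those found by at most 0.0005 in relative terms. On data simulated with the same dispersion for every gene, 0 of 51445 solved genes with a mean up to 1000 came out wrong. The same held for 0 of 9352 up to 10000 and 2 of 432 above it. Genes with a wider spread between libraries were not simulated. Library totals were 8781228 to 12734104 reads. The recovered libraries could not be tied to replicate numbers. Sequencing reads without molecular identifiers are not independent molecules.

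Genes with a mean of at least 10 normalised reads over the libraries were tested (11749) with limma 3.58.1 (R 4.3.3): voom weights on the recovered reads with the deposited scaling, 1 fit over 4 groups, Benjamini-Hochberg adjustment over all genes tested, called at 0.05. The 6 members and the lists of other pathway genes were chosen with earlier results of these data known, and the members were given no p-value. Genes named from the lists were, in each comparison, up to 6 called genes with the largest log2 difference and a mean of at least 50 in either group, and 8 chaperones, partners and targets wherever listed, of which 1 is not reported here. Lengths, GC content and positions came from GENCODE 44 on GRCh38, in which 23161 symbols matched directly and 1384 under another symbol. Alternatives were scaling to total reads, other filters and pseudocounts, limma-trend, removal of the GC trend, a fit of only 2 groups, and leaving out libraries.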

Additional observations from a re-analysis of the deposited data

How the results depend on the processing

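The 36 log2 differences of the 6 members were computed under 11 alternatives each. Of the 396 values, 14 changed sign, and 0 of these belonged to the 21 differences that were over 0.5 in size. Of the same values, 12 moved by more than the spread between libraries. With scaling to total reads, AHR and ARNT no longer separated TSZ from DMSO. So scaled, CYP1B1 no longer separated TSZ from TNFα, while AHRR did. The share of all genes separated under this scaling was not worked out.

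For the 71 other pathway genes, leaving out any 1 library gave 35 to 48 calls in TSZ over DMSO (40 over all libraries), 26 to 34 in TSZ+Nec-1s over TSZ (30), 28 to 32 in TSZ over TNFα (33), 5 to 10 in TNFα over DMSO (8), 9 to 33 in TSZ+Nec-1s over DMSO (13) and 2 to 3 in TSZ+Nec-1s over TNFα (6). The 33 came from leaving out DMSO library b. The 5 came from leaving out TNFα library b or c. Without the 3 libraries that fell with GC there were 52 calls in TSZ+Nec-1s over TSZ, 14 in TNFα over DMSO, 46 in TSZ+Nec-1s over DMSO and 35 in TSZ+Nec-1s over TNFα. With the GC trend removed there were 14, 28 and 12 in the last 3 of these comparisons. With only the 2 groups in the fit there were 4 in TNFα over DMSO and 27 in TSZ+Nec-1s over TNFα, and limma-trend with a pseudocount of 1 gave 3 in the last. The cause was not tested. The shares of all genes called under these alternatives were not set beside the counts, so nothing about the pathway is read from them. HSP90AA1 in TSZ+Nec-1s over TSZ, -0.04 and not called over all libraries, was 0.16 and called without the 3 libraries.

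Depth limits CYP1A1 and AHRR most, with 5 to 66 and 10 to 47 reads in a library. No paired analysis was possible because the recovered libraries could not be tied to the replicate numbers of the labels.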
